A study of Mus musculus with 72 samples.

Results

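The Rab genes encode small GTPases of the Ras superfamily, and 47 of them were followed here in mouse embryonic stem cells. They were chosen as protein-coding genes whose symbol is Rab, a number and at most 1 further letter, and whose exons held a mean of 400 or more T positions in reads (T count) over the 18 whole-cell libraries. Of 59 genes with such a symbol 47 reached that count, as did 14673 of the 51826 genes counted in the series. The member nearest to the limit was Rab32 with a mean T count of 492, and the nearest gene outside was Rab25 with 362. The other genes left out were Rab3c, Rab7b, Rab9b, Rab17, Rab19, Rab20, Rab27b, Rab36, Rab40b, Rab42 and Rab44, with mean T counts from 3 to 351.

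Cells of the line E14TG2a, grown in serum-containing medium with 2i inhibitors and LIF, were given 4-thiouridine (4sU), a nucleoside that enters new RNA and is read as a T-to-C (T2C) conversion after alkylation. Poly(A) RNA was then sequenced from whole cells and from a cytosolic fraction released by digitonin, a membrane fraction released by NP-40 and the remaining nuclear pellet. All cells were unmodified, and cycloheximide, which stalls ribosomes on mRNA, was in the harvest and fractionation buffers of every group. The 72 libraries cover labeling for 15, 20, 30, 40, 60 and 120 min in 6 numbered replicates. Labels give 500 µM 4sU up to 40 min and 100 µM at 60 and 120 min. Methods and labels differ here, since the methods list 500 µM at 60 min as well, and replicates 3 and 4 were taken as 500 µM at every time. Their 8 libraries of 120 min were set aside, which left 64 libraries from 16 cultures, each culture giving all 4 samples by the labels. All cells came from 1 line, and the labels speak of independently passaged replicates.

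Rab proteins cycle between a GDP-bound form held in the cytosol and a GTP-bound form on the membrane of a particular organelle, where they recruit effectors that move, tether and fuse vesicles. Exchange factors switch them on and GTPase-activating proteins switch them off. The proteins have no signal peptide or transmembrane segment and are made soluble. Most are then attached to membranes through geranylgeranyl groups on cysteines near their C-terminus. Proteins that are threaded into the endoplasmic reticulum (ER) while they are made have mRNAs that stay on its surface, so the membrane fraction of the mRNA bears on how a membrane protein is made.

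The anchor can be read in the coding sequences. In the annotated main transcript of each of the 47 genes at least 1 of the last 5 codons before the stop was a cysteine codon. Counted back from the stop, cysteine codons stood at places 1 and 3 in 16 genes, 1 and 2 in 12, 4 alone in 8, 3 and 4 in 5, 4 and 5 in 5, and 2 and 3 in 1. The last 27 bases, the stop codon included, of 1 gene of each arrangement and of the paralog Rab2b are shown because they carry the feature the genes share (GRCm38, Gencode M21, coding strand, cysteine codons in capitals):
Rab7, chromosome 6, minus strand: gcctccgcagaaagcTGCagtTGTtga
Rab1a, chromosome 11, plus strand: aagcagtcaggtggaggcTGCTGCtaa
Rab2b, chromosome 14, minus strand: atagggcctgactctggcTGCTGCtga
Rab8a, chromosome 8, plus strand: agcttcttccggTGCagtctcctgtga
Rab5a, chromosome 17, plus strand: gccagaagccagTGTTGTagtaactga
Rab11a, chromosome 9, minus strand: aaggtgcagTGCTGTcagaacatctaa
Rab34, chromosome 11, plus strand: aagaaaaaggccacaTGTTGTccctga

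Libraries held 13185351 to 52975732 reads in genes. All 10 stem cell markers had a median of 1 or more CPM (read counts scaled to library size) in whole cells, and of 13 markers of differentiated or feeder cells 5 did, with summed levels of 17.2 to 30.7 CPM. By the fold and test defined below, all 10 mRNAs of ER-made proteins were higher in membrane than in cytosol and all 8 nuclear RNAs were higher in nucleus than in cytosol. Those 10 mRNAs were also all higher in nucleus than in cytosol, with a median log2 fold change of 2.146 against 2.195 for the nuclear RNAs. The nucleus over cytosol ratio thus does not set nuclear RNA apart from ER-bound RNA. Mitochondrial transcripts made up 4.82 to 16.5% of membrane reads, 0.0313 to 0.254% of cytosolic reads and 0.516 to 1.82% of nuclear reads.

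Levels in whole cells spanned 3 orders of size. They are given as TPM, computed here from read counts per exon length and scaled to library size, which permits comparison between genes. Rab7, which acts on late endosomes and lysosomes, had a lowest, median and highest level of 81.8, 184 and 227 TPM in 16 libraries. Rab1a, which acts between ER and Golgi, had 71.5, 180 and 225 TPM. Rab5c, a GTPase of early endosomes, had 74.96, 152 and 228 TPM. The ranges of these top 3 overlapped almost fully, so their order was not resolved. At the low end stood Rab37, of secretory granules, with a median of 0.522 TPM, and Rab43, of the Golgi, with 0.112 TPM. By mean T count in whole cells these 2 were nearly equal, at 519.6 and 514.8.

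For 3 genes the read counts and the T counts did not match. Whole cells showed a median of 29.8 T per counted read over all genes, with a 5th percentile of 16.8 and a 95th of 52.4. Rab4b had 1506, Rab39 156 and Rab43 105. On the annotation, 65.0% of the exon bases of Rab4b (chr7:27168424-27178896) and 75.3% of those of Rab43 (chr6:87788853-87812164) are shared with another gene on the same strand, Gm21983 and Gm45140, and none of Rab39. Read counts of these 3 are therefore uncertain and are given beside the T counts where a result turns on them. In all, 46 of the 47 genes passed the filter on low counts, Rab43 being the exception.

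The first comparison asked whether mRNAs of these lipid-anchored proteins were found with membranes. With edgeR's quasi-likelihood test over all genes, 1 of 46 Rab genes was higher in membrane than in cytosol and 9 were lower, where a call needed both an adjusted p below 0.05 and a log2 fold change beyond 0.5 in either direction. Among all 16093 genes tested, 24.1% were called higher and 12.9% lower. The median log2 fold change was -0.32 for the Rab genes and -0.16 for all genes, and 34 of 46 Rab genes lay below the median gene. Marker mRNAs of 10 cytosolic proteins, among them Gapdh and Actb, had 0 higher and 3 lower (median -0.34). The 10 stem cell markers had 0 higher and 1 lower (median -0.35), so such a median was not particular to the Rab genes. Fold changes are relative to the scaling of the libraries. With library totals in place of TMM factors, 0 were called higher and 34 lower, against 21.1% and 45.3% of all genes, and the medians were -0.63 for Rab genes and -0.47 for all genes, with again 34 of 46 below the median gene. Within replicates 1 and 2, 3 and 4, and 5 and 6 the medians over Rab genes were -0.24, -0.30 and -0.37, and those over all genes -0.06, 0.02 and -0.31. Rab genes below the median gene then numbered 34, 37 and 28 of 46.

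**Figure D1:**
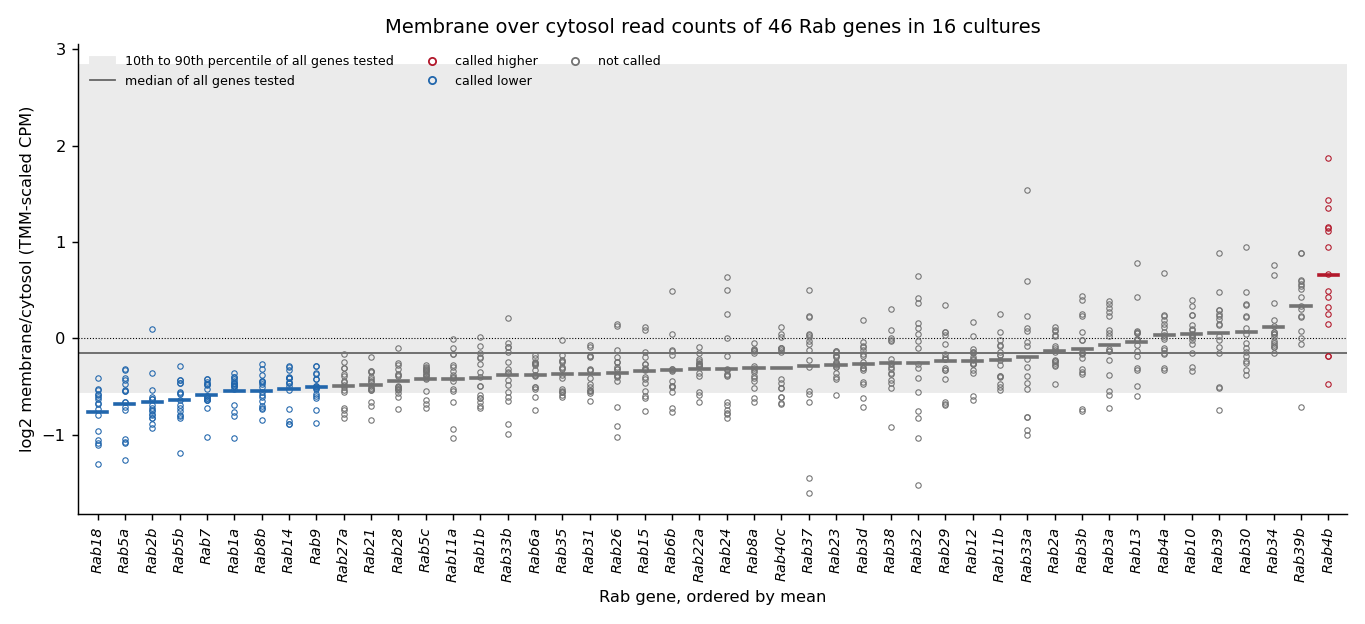
Log2 ratio of membrane to cytosolic CPM (TMM-scaled) for 46 Rab genes, 1 point for each of 16 cultures and a bar for the mean, with the median (line) and the 10th to 90th percentile (band) of all genes tested. Blue marks the 9 genes called lower and red the 1 called higher. Most bars lie between the median gene and the lower edge of the band, far from its upper edge at a log2 ratio of 2.83.

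Rab18, which acts at the ER and on lipid droplets, had the lowest membrane over cytosol ratio. Its cytosolic libraries held 118, 148 and 238 CPM (lowest, median, highest of 16) and its membrane libraries 56.2, 88.2 and 115. These and later CPM values and their ranges include the TMM factors. Every cytosolic value was above every membrane value, and the log2 fold change was -0.78 ± 0.09 (SE; edgeR adjusted p = 1.25e-11). Rab5a, which drives fusion of early endosomes, had 85.1, 94.5 and 158 CPM in cytosol and 41.2, 66.3 and 90.4 in membrane. Its ranges overlapped slightly, the ratio was below 1 in all 16 cultures, and the log2 fold change was -0.68 ± 0.09 (SE; edgeR adjusted p = 1.43e-09). Its paralog Rab5b had 43.5, 54.2 and 67.1 CPM in cytosol against 23.5, 35.4 and 43.6 in membrane. That was a log2 fold change of -0.62 ± 0.08 (SE; edgeR adjusted p = 1.97e-09).

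Rab2b, a GTPase of the Golgi, had 14.7, 17.4 and 20.1 CPM in cytosol and 7.99, 10.8 and 15.7 in membrane. The ratio was below 1 in 15 of 16 cultures, with a log2 fold change of -0.65 ± 0.09 (SE; edgeR adjusted p = 3.76e-09). On the annotation 63.99% of its exon bases lie opposite exons of Tox4 or Gm43766. The other genes called lower were Rab7 (-0.59), Rab1a (-0.56), Rab8b (-0.55), Rab14 (-0.53) and Rab9 (-0.52), all close to the fold limit. Within replicates 1 and 2 alone, Rab18 (-0.43), Rab5a (-0.29), Rab1a (-0.32), Rab7 (-0.42) and Rab9 (-0.26) kept the sign and stayed short of that limit. Of the 46 genes, Rab7, Rab18 and Rab28 had all membrane libraries below all cytosolic ones, which held for 1.34% of all genes, and 0 had them all above, which held for 14.4%.

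At the other end stood Rab4b, of recycling endosomes, with 0.301, 0.494 and 0.906 CPM in cytosol and 0.417, 0.759 and 1.23 in membrane. The ratio was above 1 in 13 of 16 cultures and the ranges overlapped. The log2 fold change was 0.65 ± 0.18 (SE; edgeR adjusted p = 0.00144), on 7 to 30 reads a library in those fractions, and the call was lost with library totals (0.33) and within replicates 5 and 6 (0.27). The mean log2 ratio without TMM was 0.34 from reads and 0.12 from T counts. T counts gave the lower ratio in every Rab gene, as in Rab1a (-0.86 from reads and -1.05 from T counts). Rab4b had the highest ratio by both. Rab39b, a Golgi GTPase of neurons mutated in intellectual disability, came next with a log2 fold change of 0.33 ± 0.17 and an edgeR adjusted p of 0.0832. Rab34, of cilia and Golgi, and Rab30, of the Golgi, followed with 0.08 ± 0.18 and 0.07 ± 0.15 and were not called (edgeR adjusted p = 0.714 and 0.693).

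The genes were then grouped by the site where their proteins act and by the cysteine codons. By site, the median log2 fold change was -0.26 for 13 ER and Golgi genes, -0.38 for 13 of early and recycling endosomes, -0.30 for 6 of late endosomes and lysosomes, -0.26 for 11 of exocytosis and -0.28 for 3 of cilia and other sites. By anchor, it was -0.30 for the 8 genes with place 4 alone, -0.35 for the 12 with 1 and 2, -0.26 for 15 with 1 and 3, -0.41 for 5 with 3 and 4, -0.26 for 5 with 4 and 5 and 0.08 for Rab34 with 2 and 3. The classes overlapped in range and were not tested against each other.

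Proteins that work with the Rabs were read in the same way, from lists chosen with results of these data known. Of 20 integral membrane proteins that bind Rabs or ride in their vesicles, all 20 were called higher in membrane than in cytosol, with a median log2 fold change of 3.41. Among them were Igf2r, the receptor that carries lysosomal enzymes (4.49), Arl6ip1, an ER-shaping protein (4.46), and Tmed10, a cargo receptor of early transport (4.34). The 3 enzymes that finish prenylated proteins on the ER were higher too, namely the proteases Zmpste24 (4.04) and Rce1 (3.27) and the methyltransferase Icmt (2.43).

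The other lists had medians between -0.38 and -0.21. Of 32 other small GTPases listed 0 were higher and 13 lower, with a median of -0.37 and the largest size of change in Arf3 (-0.84). Of 30 exchange factors 1 was higher and 6 lower (median -0.33), of 38 GTPase-activating proteins 1 was higher, Tbc1d9b (1.199), and 3 were lower (median -0.21), and of 32 effectors 4 were higher and 7 lower (median -0.32). The effectors that were higher included Golga2 (1.19) and Uso1 (1.14), which tether vesicles at the Golgi, and Fyco1 (1.05), a late endosome adaptor. Of 9 genes for prenylation and recycling, the escort protein Chml was higher (1.07). The 6 Rab-like genes tested had 0 calls and a median of -0.29.

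Paralogs share most of their coding sequence, so 14 pairs with both genes among the 47 were compared within each culture as the difference of log2 membrane over cytosol ratios. An exact two-sided sign-flip permutation test over 16 cultures, adjusted by Benjamini-Hochberg over the 14 pairs, put 7 pairs under 0.05. That test takes the 16 cultures as independent, although they carry 6 replicate numbers and some differences went with them, Rab11a against Rab11b being 0.21 within replicates 1 and 2, -0.59 within 3 and 4 and -0.22 within 5 and 6. With the means of the 6 replicates as the unit, a test added after the values were seen, 0 of 14 pairs passed after adjustment. Rab2a and Rab2b, Rab4a and Rab4b, Rab5b and Rab5c, and Rab3a and Rab3d then differed in 1 direction in 6 of 6 replicates (exact permutation p = 0.0312, the smallest 6 values allow, adjusted 0.109), so the p-values over cultures below are likely too small. The difference was largest for Rab4a against Rab4b, at -0.62 ± 0.75 (SD, n = 16, exact permutation p = 0.0062, adjusted 0.0173). It was lower in Rab4a in 14 of 16 cultures, rests on the few reads of Rab4b, and was -0.59 from T counts. Rab2a against Rab2b differed by 0.54 ± 0.34 (SD, n = 16, exact permutation p = 0.000153, adjusted 0.00214). Here Rab2a was the higher in 15 of 16 cultures, the sign held in each pair of replicates (0.74, 0.32 and 0.55), and T counts gave 0.51. Both genes end in a pair of cysteine codons.

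Rab8a and Rab10, close relatives of exocytic transport, differed by -0.36 ± 0.32 (SD, n = 16, exact permutation p = 0.000916, adjusted 0.00641), with Rab8a lower in 13 of 16 cultures. Within replicates 5 and 6 that difference was -0.03, against -0.49 within 1 and 2 and -0.46 within 3 and 4. Two-sided exact permutation tests also put Rab8a above Rab8b (0.23, adjusted p = 0.0123), Rab3a above Rab3d (0.19, adjusted p = 0.0304), and Rab5c above both Rab5a (0.25 higher on the log2 scale, adjusted p = 0.0304) and Rab5b (0.21 higher, adjusted p = 0.0155). Within replicates 1 and 2 the first of the Rab5c pairs turned to 0.06 the other way. The pairs closest to each other were Rab32 and Rab38, at 0.00 ± 0.72 (SD, n = 16, exact permutation p = 0.999), and Rab5a and Rab5b, at -0.04 ± 0.27 (SD, n = 16, exact permutation p = 0.562). For Rab32 and Rab38 single cultures ranged from -1.34 to 1.16, on 8 to 43 reads of Rab32 a library.

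**Figure D2:**
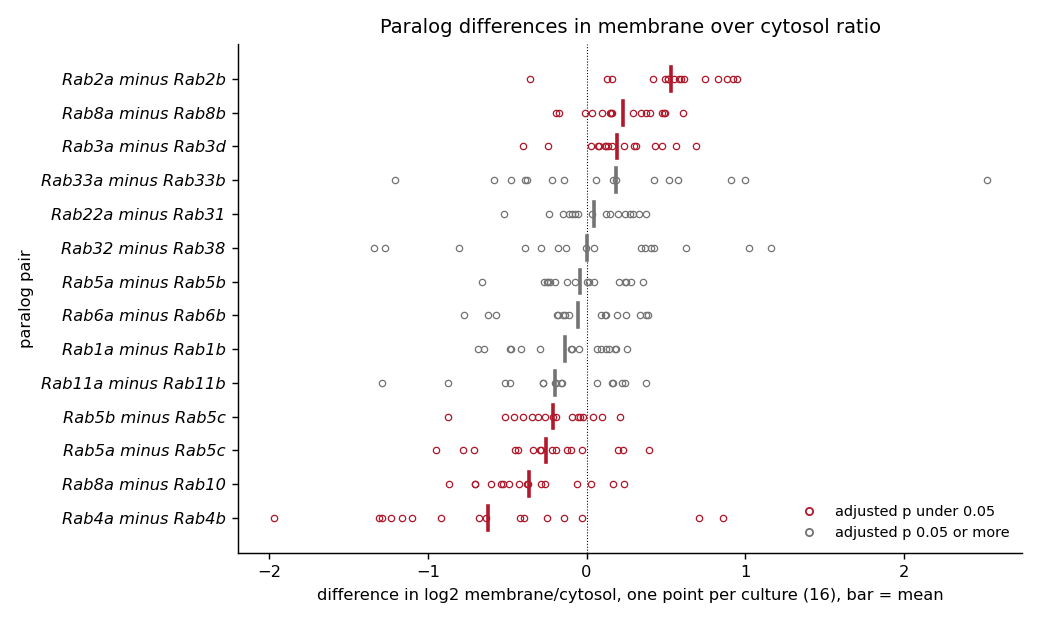
Difference between paralogs in log2 membrane over cytosol ratio, 1 point for each of 16 cultures and a bar for the mean. Red marks the 7 pairs with an adjusted p under 0.05 in the exact sign-flip permutation test. Points of most pairs lie on both sides of 0, and Rab2a exceeded Rab2b in 15 of 16 cultures.

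The second comparison set nuclear against cytosolic read counts. Of 46 Rab genes 24 were lower in nucleus than in cytosol and 5 were higher by the same edgeR test, whereas 21.2% of all genes were lower and 42.5% higher. The median log2 fold change was -0.55 for Rab genes and 0.29 for all genes, and 39 of 46 Rab genes lay below the median gene, also with library totals in place of TMM. The 10 marker mRNAs of cytosolic proteins had 0 higher and 5 lower (median -0.50). The 10 stem cell markers likewise had 0 higher and 5 lower (median -0.52), so this median too was not particular to the Rab genes. Within replicates 1 and 2, 3 and 4, and 5 and 6 the medians over Rab genes were -0.87, -0.49 and -0.68, and those over all genes 0.01, 0.43 and 0.01. With all 72 libraries the median was -0.87 for Rab genes and 0.00 for all genes, of which 35.3% were then higher and 31.7% lower. In 15 Rab genes all 16 nuclear libraries were below all cytosolic ones, against 8.05% of all genes, and in 2, Rab24 and Rab26, all were above, against 18.7%.

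**Figure D3:**
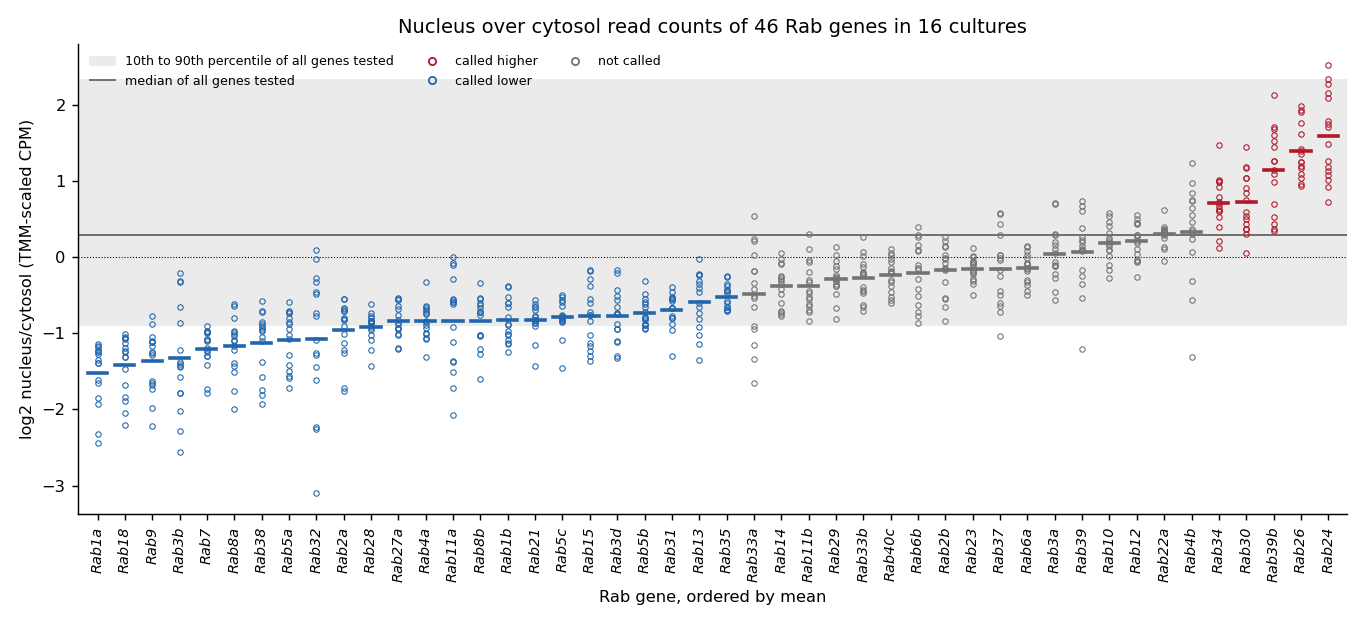
Log2 ratio of nuclear to cytosolic CPM (TMM-scaled) for 46 Rab genes, 1 point for each of 16 cultures and a bar for the mean, with the median (line) and 10th to 90th percentile (band) of all genes tested. The 24 blue genes were called lower and the 5 red ones, Rab34, Rab30, Rab39b, Rab26 and Rab24, higher.

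Rab1a had the lowest nuclear ratio, with 333, 391 and 621 CPM in cytosol (lowest, median, highest of 16) and 101, 148 and 177 in nucleus. All nuclear values lay far below, with a log2 fold change of -1.53 ± 0.10 (SE; edgeR adjusted p = 9.47e-23). Rab18 had 118, 148 and 238 CPM in cytosol and 44.4, 57.0 and 71.0 in nucleus (-1.45 ± 0.09 SE, edgeR adjusted p = 1.98e-22). Rab9, which returns receptors from late endosomes to the Golgi, had 56.9, 67.4 and 106 CPM in cytosol and 22.8, 26.9 and 33.8 in nucleus (-1.38 ± 0.09 SE, edgeR adjusted p = 1.79e-22). None of these 3 had overlapping ranges. Of 6 genes of late endosomes and lysosomes 4 were lower (median -1.06), as were 9 of 13 of early and recycling endosomes (median -0.72), 6 of 11 of exocytosis (-0.58) and 4 of 13 of ER and Golgi (-0.15).

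Rab24, an atypical Rab linked to autophagy, had the highest nuclear ratio. It had 18.8, 31.1 and 38.8 CPM in cytosol and 62.6, 86.4 and 127 in nucleus, without overlap, and a log2 fold change of 1.58 ± 0.12 (SE; edgeR adjusted p = 3.38e-19). Its gene (chr13:55319743-55321946, minus strand) spans 2.20 kb, and 62.4% of its exon bases lie opposite exons of Prelid1. Rab26, of secretory granules, had 2.53, 4.01 and 5.52 CPM in cytosol and 6.43, 10.8 and 16.9 in nucleus, again without overlap (1.41 ± 0.15 SE, edgeR adjusted p = 2.23e-13). Rab39b had 0.649, 1.46 and 2.96 CPM in cytosol against 2.69, 3.09 and 4.35 in nucleus (1.03 ± 0.16 SE, edgeR adjusted p = 7.42e-08). Its ratio was above 1 in all 16 cultures although the ranges overlapped.

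Rab30 (0.75) and Rab34 (0.66) were also called higher, each in 16 of 16 cultures. Both calls were lost within replicates 5 and 6, at 0.27 and 0.17, and that of Rab34 also within 1 and 2, at 0.38. The other small GTPases listed showed the same direction as most Rab genes, 26 of 32 being lower in nucleus and 0 higher (median -0.87). Exchange factors (9 higher and 2 lower of 30, median 0.13) and GTPase-activating proteins (15 higher and 2 lower of 38, median 0.30) had more members higher than lower. The same held for all genes, of which 42.5% were higher and 21.2% lower (median 0.29).

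Introns were read in the nucleus as T counts per 100 exonic T, as a description without test. The median over all genes was 32.3. Of the genes higher in nucleus, Rab26 had 95.2 (median of 16 libraries), Rab30 90.6 and Rab24 83.5, whereas Rab34 had 28.5 and Rab39b 2.76. Rab1a (15.1), Rab18 (12.8) and Rab9 (46.7), the lowest in nucleus, had less than the first 3. Over 46 Rab genes this intron level and the nuclear log2 fold change had a Spearman correlation of 0.23, from the same libraries, and gene length and that fold change one of -0.35.

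The third comparison followed new mRNA over time. The share of new mRNA is the T2C count over the T count, divided by the conversion rate of the library, so that 1 means all RNA was new and counting error can carry it above 1. No sequencing error was subtracted, so errors read as T2C add to each share. They weigh most in the low shares of short labeling, where cytosolic conversion rates at 15 min were 2.07 and 2.42%. The main tests of shares therefore used 60 and 120 min only, where shares were larger, and earlier values are descriptive. Cytosolic conversion rates at 60 min in replicates 5 and 6 were still 2.38 and 2.58%. Errors thus add to low shares in those libraries too. In cytosol the median share over Rab genes was 0.0162 ± 0.0040 at 15 min (SD, n = 2), 0.0227 ± 0.0035 at 20 min (n = 4), 0.0398 ± 0.0001 at 30 min (n = 2), 0.0513 ± 0.0050 at 40 min (n = 2) and 0.0837 ± 0.0004 at 60 min with 500 µM (n = 2). With 100 µM it was 0.181 ± 0.007 at 60 min and 0.341 ± 0.009 at 120 min (n = 2 each). The median over all genes was 0.0157 at 15 min, 0.0931 and 0.193 at 60 min and 0.369 at 120 min. The 500 µM series and the 100 µM series came from different replicates, so dose and replicate cannot be told apart at 60 min. Whole-cell shares are not followed here. With 100 µM their median over all genes was 0.220 to 0.378 at 60 min and 0.175 to 0.391 at 120 min. For example, Rab23 in replicate 6 fell from 0.736 to 0.363 in whole cells and rose from 0.316 to 0.754 in cytosol. The cause was not tested.

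In the nucleus the median share over Rab genes was 0.0333 ± 0.0066 at 15 min (SD, n = 2), 0.0951 ± 0.0470 at 20 min (n = 4), 0.153 ± 0.004 at 40 min (n = 2) and 0.399 ± 0.022 at 120 min (n = 2). It exceeded the cytosolic median in each of these conditions. Tests at 60 and 120 min took 6 cultures as independent, replicates 3 and 4 at 60 min and replicates 5 and 6 at both times. Over these 6 cultures, limma on log2(share + 0.01) called 15 of 44 Rab genes higher in nucleus than in cytosol and 1 lower. The same call held for 39.3% and 2.92% of all genes, and the median log2 difference was 0.52 for both Rab genes and all genes. Rab32, Rab37 and Rab43 had under 400 T in a library and were not tested. Centred on the median of each library, 5 Rab genes were higher and 6 lower, against 14.2% and 20.7% of all genes.

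The largest nuclear excess was in Rab26. Its cytosolic shares were 0.0262 and 0 at 60 min in replicates 3 and 4, 0.167 and 0.142 at 60 min in replicates 5 and 6, and 0.129 and 0.156 at 120 min, on 0 to 16 T2C counts. The count of 0 was of 2719 T and allows a share of up to 0.0146. Its nuclear shares in the same order were 0.321, 0.193, 0.357, 0.303, 0.664 and 0.489. Every nuclear value was above that of its culture, with a log2 difference of 2.25 ± 0.41 (SE; limma adjusted p = 0.00197). Rab24 followed (1.65 ± 0.26 SE; limma adjusted p = 0.00098), then Rab6b, a neuronal Golgi Rab (1.58), and Rab34 (1.43). Rab24, Rab26 and Rab34 were thus higher in nucleus in read counts as well as in new share.

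Rab39b went the other way. Its cytosolic shares in that order were 0.274, 0.398, 0.95, 0.424, 0.688 and 0.585, and its nuclear shares 0.15, 0.0435, 0.309, 0.258, 0.533 and 0.408. The cytosolic value was the higher in 6 of 6 cultures, with a log2 difference, nucleus minus cytosol, of -1.15 ± 0.31 (SE; limma adjusted p = 0.0105). The cytosolic values rest on 9 to 66 T2C counts. Between membrane and cytosol, 0 of 46 Rab genes were called in either direction by limma, against 0.701% of all genes higher and 9.43% lower. An unadjusted limma p under 0.05 was found for 7 of 46 Rab genes and for 2782 of all 12407 genes. The median log2 difference was -0.10 for Rab genes and for all genes. Of the 20 integral membrane proteins 14 were lower in membrane, with a median of -0.96.

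Set against the median gene of the same library, the cytosolic share of new mRNA differed among the Rab genes about as often as among all genes. Of 46 genes 11 were higher and 18 lower at 60 and 120 min (limma; 32.3% and 33.2% of all genes), with log2 differences from -1.73 to 2.10 and a median of -0.23. Over all genes they ran from -4.33 to 2.86 with a median of -0.03. The nucleus gave 8 higher and 15 lower of 44, against 24.6% and 27.7% of all genes. Over 44 Rab genes the cytosolic and nuclear differences had a Spearman correlation of 0.75, being from the same cultures.

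Rab33b, a Golgi GTPase that binds the autophagy protein Atg16l1, had the highest share (chr3:51483920-51496232, plus strand). In cytosol it was 0.102 ± 0.036 at 15 min (SD, n = 2), 0.186 ± 0.025 at 20 min (n = 4), 0.273 ± 0.003 at 30 min (n = 2), 0.42 ± 0.119 at 40 min (n = 2) and 0.638 ± 0.002 at 60 min with 500 µM (n = 2). With 100 µM it reached 0.906 ± 0.009 at 60 min and 1.06 ± 0.02 at 120 min (n = 2 each). The share was above the median gene in 6 of 6 cultures of 60 and 120 min, by 2.10 ± 0.20 on the log2 scale (SE; limma adjusted p = 5.9e-05), on 113 to 392 T2C counts. In nucleus it was higher by 1.30 ± 0.11 (SE; limma adjusted p = 3.96e-05).

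Rab39b in cytosol was above the median gene by 1.38 ± 0.21 (SE; limma adjusted p = 0.000637) and Rab3a, which acts in synaptic vesicle release, by 1.36 ± 0.15 (SE; limma adjusted p = 0.000118), each in 6 of 6 cultures. Rab3a had shares of 0.276 and 0.315 at 60 min in replicates 3 and 4, 0.612 and 0.277 in replicates 5 and 6, and 0.973 and 1.15 at 120 min, on 21 to 139 T2C counts. The other genes above the median gene were Rab22a (1.29) and Rab5a (0.70) and Rab5b (0.57) of early endosomes, Rab30 (1.27), Rab9 (0.75), Rab8b (0.55), and Rab40c (0.92) and Rab23 (0.90), the last a negative regulator of Hedgehog signalling in cilia. Rab22a had cytosolic shares of 0.952 and 0.933 at 120 min in replicates 5 and 6, on 19747 or more T a library.

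**Figure D4:**
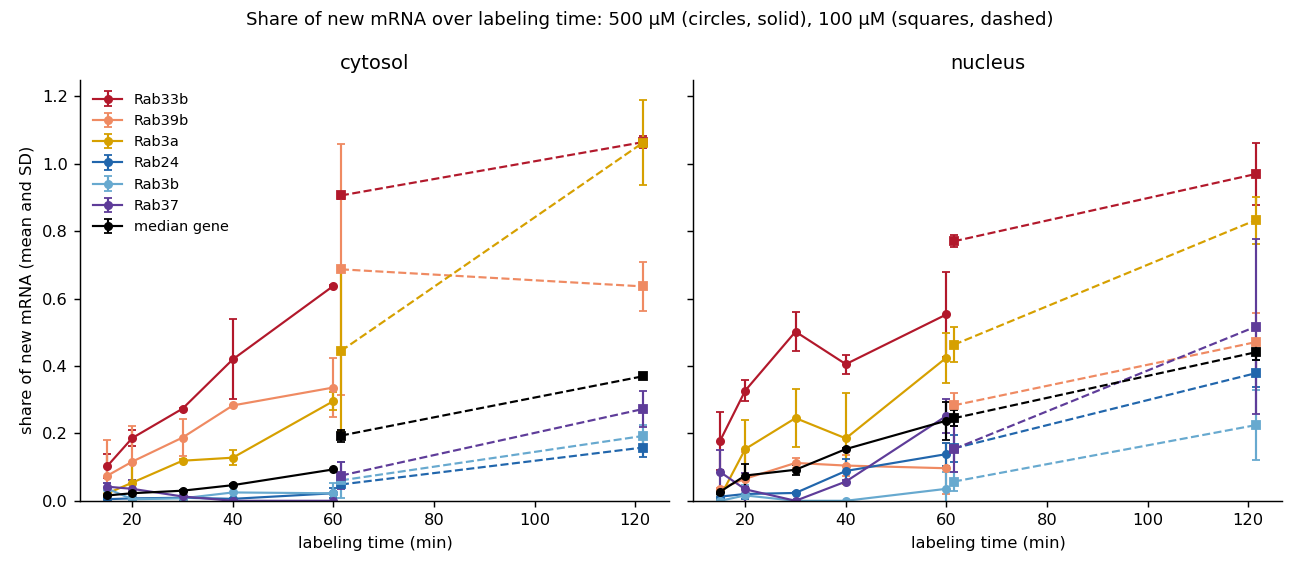
Share of new mRNA (mean and SD over 2 or 4 replicates) against labeling time in cytosol and nucleus for the 3 Rab genes with the highest and the 3 with the lowest cytosolic share, and for the median gene. Circles mark 500 µM and squares 100 µM 4sU, the squares moved slightly to the right. In cytosol the means of Rab33b, Rab39b and Rab3a lie above the median gene from 15 min on. Those of Rab24, Rab3b and Rab37 lie below it from 40 min on. At 15 min the cytosolic shares of Rab39b and Rab3a were 0 in replicate 2.

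Rab37 had the lowest estimate, -1.73 ± 0.47 (SE; limma adjusted p = 0.011), with 0 to 9 T2C counts a library. At 60 min replicates 3 and 4 had 0 of 674 and 0 of 1331 T, which allow shares of up to 0.0763 and 0.0298 (3 counts, counting error only). With a pseudocount of 0.001 the estimate was -2.84, so its size is not fixed by these counts. Rab3b, a secretory Rab, had -1.62 ± 0.39 (SE; limma adjusted p = 0.00629) on 0 to 21 T2C counts, and -2.26 with that pseudocount.

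Rab24 had shares of 0.0324 and 0.0123 at 60 min in replicates 3 and 4, 0.0512 and 0.0456 in replicates 5 and 6, and 0.178 and 0.138 at 120 min, on 16 to 117 T2C counts. It was below the median gene in 6 of 6 cultures, by -1.59 ± 0.17 on the log2 scale (SE; limma adjusted p = 9.89e-05). Rab4b was at -1.52, Rab26 at -1.36 and Rab1b, the paralog of Rab1a, at -1.31 ± 0.08. Rab1b had shares of 0.0303 and 0.0311 at 60 min in replicates 3 and 4, 0.0827 and 0.066 in replicates 5 and 6, and 0.155 and 0.137 at 120 min. Those of Rab1a in the same order were 0.0937, 0.0725, 0.148, 0.144, 0.256 and 0.268, higher in 6 of 6 cultures, and its estimate of -0.35 stayed short of the fold limit.

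Paralogs also differed in call for new share. Beside Rab1a and Rab1b, Rab3a was above the median gene and Rab3b below it, and Rab5a (0.70) and Rab5b (0.57) were above it and Rab5c (-0.90) below. Differences between paralogs in share were not tested. In nucleus the estimate of Rab10 was -0.90 ± 0.17 (SE; limma adjusted p = 0.0018) while in cytosol it was 0.18 and not called. The genes with the highest level, Rab7 (-0.82), Rab1a (-0.35) and Rab5c (-0.90), were all below the median gene.

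**Figure D5:**
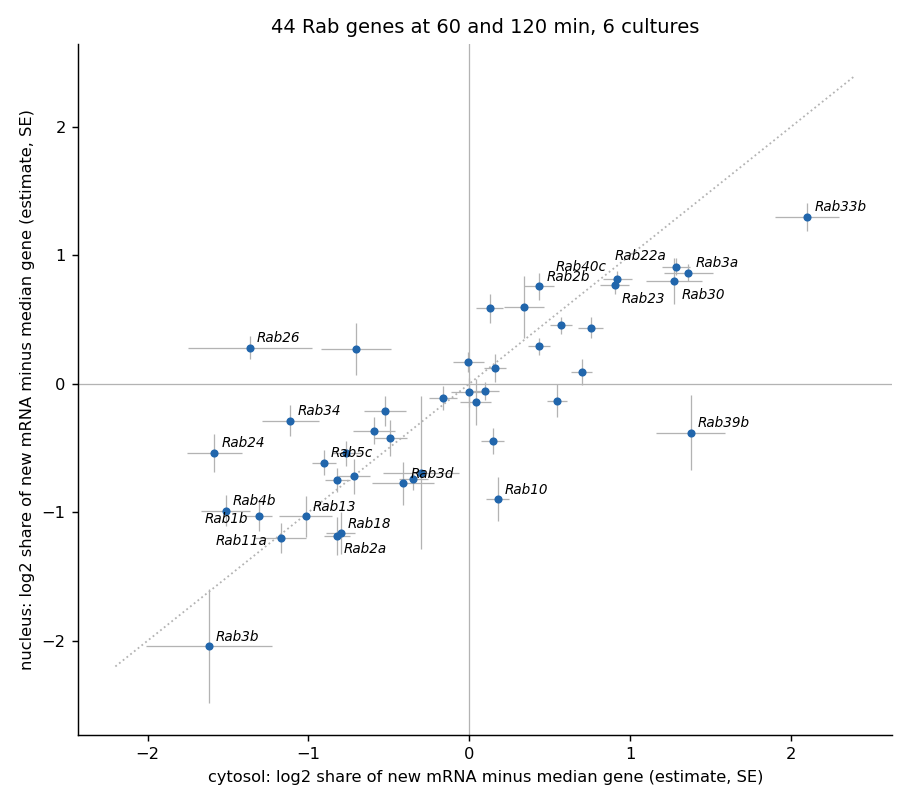
Log2 share of new mRNA relative to the median gene in cytosol (x) and nucleus (y) for 44 Rab genes, with estimates and SE from limma over 6 cultures of 60 and 120 min. The dotted line marks equal values. Most genes lie near the line from Rab3b at the lower left to Rab33b at the upper right, Rab26, Rab34 and Rab24 lie above it, and Rab39b and Rab10 lie below.

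Among the partners, prenylation and recycling genes had both directions in cytosol, with 3 of 9 above the median gene and 5 below (median -0.68). Rabggtb, the beta subunit of the enzyme that attaches the Rab anchor, was above (1.37 ± 0.19 SE; limma adjusted p = 0.000309) and Rabggta, its alpha subunit, was below (-1.30 ± 0.18 SE; limma adjusted p = 0.000381). Rab-like genes were 5 of 6 below (median -1.19), among them Ift22 (-2.67) and Ift27 (-2.10) of intraflagellar transport. The other small GTPases listed had 9 above and 14 below of 32 (median -0.24), with Rnd3 (1.97) and Rhob (1.87) at the top and Arl3 (-2.35) at the bottom. Exchange factors had 6 of 30 above and 6 below (median -0.21), GTPase-activating proteins 12 of 37 above and 10 below (-0.07), and effectors 7 of 30 above and 4 below (0.28).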

How the data were processed

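Read counts per gene were deposited as raw counts. Per the labels the authors aligned reads of stranded poly(A) libraries to mm10 with STAR 2.7.6 and counted them with HTSeq 0.11.1, and the methods name Gencode M14. Whether strand was used in counting is not given in the sources used here. T and T2C counts per gene and the conversion rate of each library (a fraction) came from the authors' own program, as did the deposited ratio of T2C over T divided by that rate. Shares were recomputed from the counts. Gene names, positions, exon lengths and coding ends were taken from Gencode M21 (GRCm38; 99.6% of gene IDs matched). Reads outside genes, 30.4 to 48.8% of all, were left out.

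Counts were tested with edgeR 4.0.16 (quasi-likelihood, TMM, filterByExpr, fraction as the factor, 64 libraries). Shares were tested with limma 3.58.1 (trend) on log2(share + 0.01) for genes with 400 T or more in each of the libraries used, at 60 and 120 min over 6 cultures, with condition as a covariate for differences between fractions. Calls needed a Benjamini-Hochberg adjusted p under 0.05 and an absolute log2 difference over 0.5. Paralogs were compared on counts plus 0.5 by exact sign-flip permutation (smallest p 3.05e-05). Tests over 16 cultures and over the 6 cultures of 60 and 120 min took cultures of the same replicate number as separate samples. Their edgeR, limma and permutation p-values are therefore likely too small. Replicates 5 and 6 each entered the share tests at both 60 and 120 min. Alternatives were DESeq2 1.42.0, other scalings, filters, pseudocounts, T minimums and sets of libraries, and a block by culture. Fractions of 1 time and replicate came from the same cells, and their deviations from group means correlated at 0.46 to 0.80 between cytosol and membrane and 0.04 to 0.57 between cytosol and nucleus. Among genes named by the rule below, the block changed the nuclear share calls of Rab7 and Rab8a. On simulated membrane over cytosol counts with 200 of 14993 genes changed by 1 log2 unit edgeR recovered 143 with 4 false calls, and on simulated nucleus over cytosol shares with 200 of 12450 genes changed limma recovered 187 with 12. The simulated libraries were drawn independently, without shared cultures or replicate numbers. Their false calls therefore do not give the error rate in these data.

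Members, lists and tests were chosen with earlier results of these data known. Named were the 4 highest and 4 lowest genes in membrane over cytosol, the 3 highest and lowest in nucleus over cytosol and in cytosolic share, the 3 largest and 2 smallest paralog differences, the 3 highest levels, the genes next to the T limit, and up to 3 genes of a list with the largest values. Other genes were named as members of a count or class after their values were seen. T positions of 1 read are not independent, so limits from counts cover counting error only. For 1 of the lists a further result is not reported here.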

Additional observations from a re-analysis of the deposited data

Results flagged for a closer look

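In 46 sets of 6 cultures (60 and 120 min, log2 share minus the median gene, named Rab genes in cytosol and nucleus) 3 single values stood apart from the other 5. Chance alone flags about 1 set in 20. Rab38 in cytosol at 60 min, replicate 3, was at -1.60, with the other 5 between -0.28 and 0.39, on 3 T2C counts of 2143 T. Rab38 in nucleus at 60 min, replicate 4, was at -4.39, with the others between -0.11 and 0.47, on 0 T2C counts of 727 T, which allow a share of up to 0.0498. Rab3a in cytosol at 60 min, replicate 6, was at 0.58, with the others between 1.35 and 1.64, on 21 T2C counts of 2943 T.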

How the results depend on the processing

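The number of Rab genes lower in membrane than in cytosol depended on the scaling and on the replicates. It was 9 in the main test, 34 with library totals, 14 with no filter on low counts, 3 within replicates 1 and 2, 15 in the pair 5 and 6, and 5 to 21 on leaving out 1 replicate (16 without replicate 2, 5 without replicate 3, 21 without replicate 5). The share of all genes called lower, 12.9% in the main test, was in the same order 45.3, 10.52, 10.4, 27.8, 24.9, 13.4 and 26.2%. The number higher was 0 with library totals and in the pair 5 and 6, and 2 in the pair 1 and 2. For nuclear read counts, calls numbered 3 higher in place of 5 over all 72 libraries, and 3 in the pair 5 and 6. For new shares in nucleus against cytosol, 35 of 42 genes were higher in place of 15 of 44 over all 16 cultures, where 75.5% of all genes were (39.3% in the main test), and 7 to 12 on leaving out a replicate (7 without replicate 5, 8 without replicate 6, with 23.0 and 26.8% of all genes). Centring gave 5 higher and 6 lower in place of 1, and 0 were lower at a T minimum of 2000, with 1 to 2 on leaving out a replicate. For membrane against cytosol shares, 2 were higher over all 16 cultures and with centring, 1 was lower at a T minimum of 2000, and 0 to 1 were higher and 0 to 3 lower on leaving out a replicate (1 higher and 3 lower without replicate 3, 1 lower without replicate 4). Paralog pairs under 0.05 numbered 4 to 8 on leaving out a replicate, against 7, with 4 without replicate 1, 4 without replicate 3, and 0 with the means of the 6 replicates as the unit. Of the genes named, Rab26 in cytosol turned from -1.36 to 0.24 over all 16 cultures and was -1.97 (limma adjusted p = 0.0574) with a pseudocount of 0.001, and Rab5a in nucleus against cytosol share turned to 0.71. The causes were not tested. With culture as a replicate block, read count calls stayed at 1 higher and 9 lower in membrane and 5 and 24 in nucleus. For shares, 10 genes were higher in nuclear share (15 without), against 30.4% of all genes, and Rab7 (limma adjusted p = 0.0819) and Rab8a (0.0505) lost that call. The block changed no other call of a named gene. Counts of T2C limit the shares of Rab3b, Rab26, Rab37, Rab38 and Rab39b.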
